A study of Mus musculus with 8 samples.

Results

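Splicing factors and spliceosome proteins were followed through 139 of the 45037 probe sets of a mouse expression array, chosen as those annotated to a single gene whose symbol begins with Srsf, Hnrnp, Sf3a, Sf3b or Snrp. They belong to 47 genes in 4 families: 33 probe sets of SR proteins (Srsf genes), 58 of hnRNP proteins, 30 of the SF3a and SF3b complexes, called SF3 here, and 18 of Sm and other snRNP proteins (Snrp genes). The rule used gene symbols and no measured value, but it was set with earlier results of these data known. The arrays compared Ly6Clo monocytes (labelled Gr1lo) with Ly6Chi monocytes (labelled Gr1hi). Both were sorted from leukocytes of 12-week-old mice of strain C57Bl/6, and no mutation or treatment is named. Each subset had 4 samples on 1 array each, and each sample came from a separate sort of cells pooled from 5 mice, so differences between single animals cannot be seen.

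Introns are removed from pre-mRNA by the spliceosome, which is built from small nuclear RNAs and their proteins. A ring of Sm proteins, encoded by Snrp genes, surrounds most of the main small nuclear RNAs, while U6 carries a ring of related Lsm proteins; the SF3a and SF3b complexes belong to the U2 particle, which recognises the branch point. SR proteins mostly favour the use of nearby exons by binding RNA and recruiting the spliceosome, whereas many hnRNP proteins can block splice sites, and both kinds also act in RNA export, stability and translation. An array of this kind reads transcript amount near the 3' end, so it measures how much of each factor's RNA was present and not how any transcript was spliced.

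The 8 array medians lay between 80.5 and 83.0 intensity units. Subset identity was checked on markers written from general knowledge. All 7 nonclassical markers, among them Nr4a1, Itgax and Cd36, were higher in Ly6Clo, and all 5 measured classical markers, among them Ccr2 and Vcan, were lower in Ly6Clo. Values below are log2 intensities, differences are Ly6Clo minus Ly6Chi on the log2 scale, and errors are SD over 4 arrays unless named SE. A probe set was tested if it exceeded the median of the whole table (log2 6.36) in at least 4 of the 8 arrays, and it is said to be called, or to have risen or fallen, at a Benjamini-Hochberg adjusted p under 0.05 in limma over all 22831 tested probe sets. A gene is represented by its brightest tested probe set. The number of arrays limits the precision, and the median SE of a difference was 0.08 for the members and for all tested probe sets alike.

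Most splicing factor RNAs differed little between the subsets, and a few members moved clearly. Hnrnpr, an hnRNP protein, and Sf3b1 and Sf3a2, subunits of the U2 particle, rose in Ly6Clo, Sf3a2 on 1 of its 2 tested probe sets. For the hnRNP gene Hnrnpab 4 of 6 tested probe sets rose, but the brightest differed by -0.26 and was not called. Hnrnpll, an hnRNP protein known for regulating CD45 exons in lymphocytes, and Snrpb2, the U2 protein B'', were lower in Ly6Clo. Of the 139 probe sets 123 were tested, and 16 were too dim. Of the 123, 19 (against 15.2% of all tested probe sets) rose and 6 (against 15.9%) fell, which makes 20.3% called, against 31.1% of the whole table's tested probe sets. For 29 members every Ly6Clo array lay on 1 side of every Ly6Chi array (against 31.8% of the whole table's tested probe sets). By gene, 6 of 46 tested rose (against 14.1% of 11546 genes) and 3 fell (against 18.5%), so 19.6% were called, against 32.5% of all genes. By probe set, the members' median difference was 0.08, against 0.01 over all tested probe sets. With 1 probe set per gene it was 0.02, against -0.01 over all tested genes. No member differed by 2-fold between subset means.

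**Figure D1:**
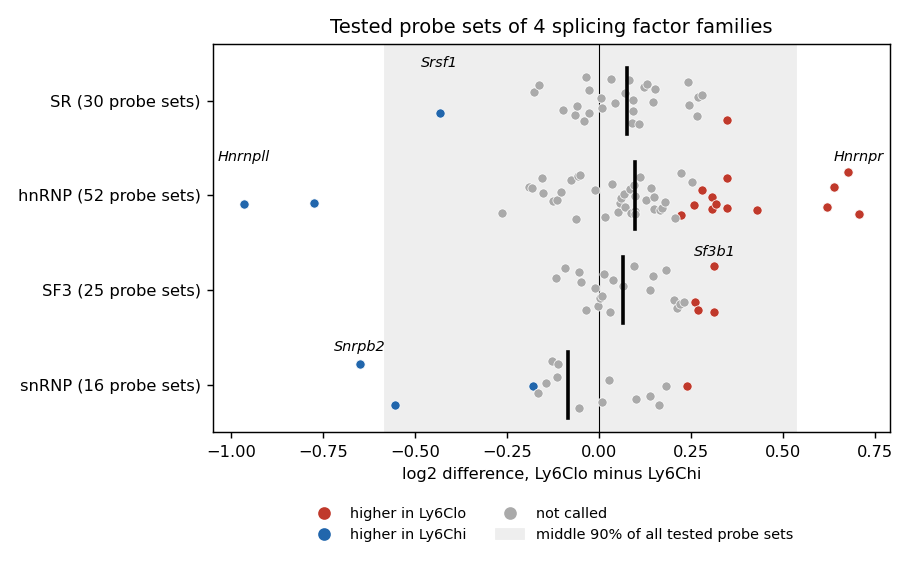
Log2 difference (Ly6Clo minus Ly6Chi) of the tested probe sets of each family, 1 point per probe set, with points coloured by call and the family median as a black bar. The grey band spans the middle 90% of all tested probe sets, and only probe sets of Hnrnpll, Hnrnpr, Hnrnpab and Snrpb2 lie outside it.

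For 3 genes with large differences on at least 1 probe set the start of the gene is shown, because the array reads RNA amount and the promoter is the nearest regulatory sequence to set beside it. RefSeq windows of build GRCm38.p6, from 250 bases before to 50 after the start, were found for 42 of the 47 genes, with 58 windows in all.  Capitals mark CCAAT, the box known to be bound by NF-Y, and CCGGAA, the core known to be bound by ETS factors. They also mark TATAAA, the letters of a TATA box, wherever they stood in the window. Each motif was searched on both strands, so that a match can also read as its reverse complement. No matches overlapped in these windows. Hnrnpr (chr4:136310692-136310991, plus strand, the upstream of 2 starts), Hnrnpab (chr11:51606832-51607131, minus strand) and Snrpb2 (chr2:143062819-143063118, plus strand) read, 5′ to 3′:
Hnrnpr: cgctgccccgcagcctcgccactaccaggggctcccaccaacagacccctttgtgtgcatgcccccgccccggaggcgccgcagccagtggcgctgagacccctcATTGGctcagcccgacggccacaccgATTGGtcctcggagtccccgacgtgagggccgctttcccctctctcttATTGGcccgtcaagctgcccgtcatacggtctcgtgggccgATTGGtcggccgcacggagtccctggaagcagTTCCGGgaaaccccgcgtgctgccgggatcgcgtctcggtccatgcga
Hnrnpab: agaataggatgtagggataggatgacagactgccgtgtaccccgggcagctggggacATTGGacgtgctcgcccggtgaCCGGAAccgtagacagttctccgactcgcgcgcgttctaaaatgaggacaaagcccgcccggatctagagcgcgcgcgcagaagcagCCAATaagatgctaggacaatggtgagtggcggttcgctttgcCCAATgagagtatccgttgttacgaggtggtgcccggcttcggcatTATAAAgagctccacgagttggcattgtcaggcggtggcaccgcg
Snrpb2: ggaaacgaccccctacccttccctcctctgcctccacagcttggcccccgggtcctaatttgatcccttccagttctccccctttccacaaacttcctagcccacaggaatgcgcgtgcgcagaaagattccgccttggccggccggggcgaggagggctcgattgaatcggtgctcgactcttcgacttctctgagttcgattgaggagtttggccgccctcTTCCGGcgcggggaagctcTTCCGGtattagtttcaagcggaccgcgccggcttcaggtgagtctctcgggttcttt
The Hnrnpr window held 4 CCAAT matches before the annotated start and 1 of CCGGAA just after it. The window of its other start held none of the motifs. The Hnrnpab window held 3 matches of CCAAT and 1 of CCGGAA before the start. Its 1 TATAAA match stood just after the annotated start and not upstream of it. In the Snrpb2 window 2 CCGGAA matches stood shortly before the start, with neither of the other motifs. CCGGAA was present in 29 of the 58 member windows, against 26.1% of 11937 windows of tested genes and 14.9% of all 32851 windows. CCAAT was present in 46.6% of member windows, against 36.8% for tested genes and 37.4% for all, and TATAAA in 10.3%, against 7.72% and 13.6%. Several windows can belong to 1 gene, the shares were not tested, and a match is a run of letters and not a shown binding site.

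Transcripts of SR proteins showed no called difference at the gene level. Of 10 genes, 9 were tested, and none rose or fell in limma, whereas 32.5% of all tested genes were called. At an unadjusted p under 0.05, 1 would rise and 1 would fall. Srsf12 had its only probe set below the table median, at 3.47 to 3.54 in Ly6Clo and 3.43 to 3.60 in Ly6Chi. Differences of the 9 genes ran from -0.18 for Srsf9 to 0.27 for Srsf5, and their 95% intervals stayed between -0.34 and 0.56. The median over the 30 tested SR probe sets was 0.08. With each array centred on its own median, 1 SR gene was called lower in Ly6Clo.

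Srsf5, a shuttling SR protein that also acts in mRNA export, stood at 12.15, 12.36, 12.21 and 11.92 in Ly6Clo, against 12.05, 11.88, 11.51 and 12.12 in Ly6Chi. The subsets overlapped, and Ly6Chi replicate 3 was the lowest of the 8 (difference 0.27, 95% interval -0.02 to 0.56, limma adjusted p = 0.15). Srsf2 (SC35), known from mutations in human myeloid neoplasms, had 10.58, 10.73, 10.61 and 10.41 in Ly6Clo and 10.58, 10.66, 10.52 and 10.69 in Ly6Chi, again overlapping (difference -0.04, 95% interval -0.21 to 0.14). Srsf1 (SF2/ASF), the founding SR protein, differed by 0.01 with an interval of -0.17 to 0.18. Srsf6 and Srsf11 differed by 0.15 and 0.07, and Srsf3, Srsf4 and Srsf10 by -0.03, 0.11 and 0.09.

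Single SR probe sets did pass the test, 1 in each direction, which is 6.67% of the 30 tested, against 31.1% in the whole table. For Srsf3, 1 of 6 tested probe sets rose, with 7.68, 7.88, 7.81 and 7.66 in Ly6Clo and 7.20, 7.47, 7.34 and 7.63 in Ly6Chi (difference 0.35, SE 0.09, adjusted p = 0.015). These values did not overlap, although the other 5 probe sets of Srsf3 differed by only -0.10 to -0.03. For Srsf1, 1 of 6 tested probe sets fell, with 7.67, 8.04, 7.97 and 7.84 in Ly6Clo and 8.46, 8.45, 7.99 and 8.37 in Ly6Chi (difference -0.43, SE 0.11, adjusted p = 0.012). Here the subsets overlapped through Ly6Chi replicate 3, and the call was lost without both arrays numbered 1 (adjusted p = 0.088). Another Srsf1 probe set pointed the other way by 0.24 without a call (limma adjusted p = 0.0884). The remaining tested Srsf1 probe sets differed by -0.03 to 0.03. Both called SR probe sets were chosen after their values were seen.

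The hnRNP family is the largest of the 4. Of its 52 tested probe sets, 13 rose and 2 fell, so 28.8% were called, against 31.1% in the whole table. Of 19 genes 4 rose, 1 fell and 14 were not called, which is 26.3% called, against 32.5% of all genes. The uncalled genes differed by -0.26 to 0.21, with 95% intervals between -0.50 and 0.39. The median over the tested hnRNP probe sets was 0.10.

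Hnrnpr, an RNA-binding protein close in sequence to Syncrip, was 1.56-fold higher in Ly6Clo. It stood at 10.45, 10.42, 10.72 and 10.16 in Ly6Clo, against 9.76, 9.90, 9.56 and 9.97 in Ly6Chi (difference 0.64, SE 0.12, adjusted p = 0.0015). All Ly6Clo arrays lay above all Ly6Chi arrays. On 2 further probe sets Hnrnpr rose by 0.71 and 0.68, again without overlap, while its dimmest tested probe set, with a mean near the table median, differed by 0.14 and was not called. All 3 Hnrnpr probe sets that rose were of a kind that can match several transcripts, and the uncalled one was not.

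Hnrnpll was 1.71-fold lower in Ly6Clo, with 9.02, 9.39, 9.12 and 9.27 in Ly6Clo and 9.94, 9.93, 9.98 and 10.04 in Ly6Chi (difference -0.77, SE 0.08, adjusted p = 2.1e-05). Its other probe set gave 8.37, 8.57, 8.24 and 8.19 in Ly6Clo and 9.24, 9.36, 9.27 and 9.35 in Ly6Chi, a 1.95-fold difference (difference -0.97, SE 0.08, adjusted p = 4.7e-06). On both probe sets the subsets stood well apart, and both calls were kept under every alternative setting in which they could be computed. Because Hnrnpll is known from lymphocytes, lymphocyte markers are given beside it. None of 5 tested T cell markers was called in limma, and the summed intensity of 6 was 763.1 to 894.7 in Ly6Clo, against 747.9 to 830.5 in Ly6Chi. Of 4 tested B cell markers, Cd79a and Ms4a1 fell, and the sum over 5 was 509.1 to 822.3 in Ly6Clo, against 716.1 to 1178.0 in Ly6Chi. Their part in the Hnrnpll difference was not tested.

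Hnrnph1 and Hnrnph3, of the group that binds G-rich RNA, rose by smaller amounts. Hnrnph1 had 11.39, 11.56, 11.41 and 11.39 in Ly6Clo and 11.17, 11.19, 11.09 and 11.28 in Ly6Chi (difference 0.26, SE 0.07, adjusted p = 0.012). Hnrnph3 had 8.46, 8.68, 8.53 and 8.44 in Ly6Clo and 8.18, 8.41, 8.08 and 8.21 in Ly6Chi (difference 0.31, SE 0.08, adjusted p = 0.014). Neither overlapped. Hnrnph2 of the same group differed by 0.15 and was not called. Hnrnpu, the scaffold attachment factor, had 11.46, 11.39, 11.34 and 11.31 in Ly6Clo and 11.28, 11.16, 11.04 and 11.14 in Ly6Chi (difference 0.22, SE 0.07, adjusted p = 0.030). This call was lost without Ly6Clo replicate 1 (adjusted p = 0.084) or 2 (0.063) and without Ly6Chi replicate 2 (0.062), 3 (0.0825) or 4 (0.062). A second Hnrnpu probe set rose by 0.31 (adjusted p = 0.0024), and 3 more differed by -0.12, -0.11 and 0.10 without a call.

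For Hnrnpab (CBF-A), known as a regulator of RNA localisation and transcription, the probe sets disagreed, as was found after its values were seen. Of 6 tested probe sets, 4 rose by 0.28 to 0.62, all without overlap. The one with the largest difference gave 9.43, 9.49, 9.48 and 9.18 in Ly6Clo and 9.04, 8.76, 8.53 and 8.78 in Ly6Chi (difference 0.62, SE 0.11, adjusted p = 9.1e-04). The brightest, which represents the gene, pointed the other way, with 12.05, 11.76, 11.62 and 11.67 in Ly6Clo and 12.23, 12.06, 12.04 and 11.83 in Ly6Chi. Its subsets overlapped and it was not called (difference -0.26, SE 0.11, adjusted p = 0.087).

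Hnrnpf, which shares RNA targets with Hnrnph1, was likewise not called on its brightest probe set (difference 0.17, adjusted p = 0.26), where Ly6Clo had 12.80, 12.37, 12.41 and 12.48 and Ly6Chi 12.25, 12.38, 12.53 and 12.23. Its 2 probe sets that did rise differed by 0.32 and 0.35, without overlap. With the mean of all tested probe sets of a gene in place of the brightest, 5 hnRNP genes rose and 1 fell. The abundant factors Hnrnpa2b1, Hnrnpk and Hnrnpm, with differences of -0.16, 0.07 and -0.06 on their brightest probe sets, were not called. Further tested probe sets of Hnrnpa2b1 differed by 0.17, 0.10 and 0.09, also without a call. Hnrnpc, which binds U-rich tracts, had 11.38 to 11.63 in Ly6Clo and 11.67 to 11.70 in Ly6Chi without overlap, but missed the threshold (difference -0.18, adjusted p = 0.058).

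**Figure D2:**
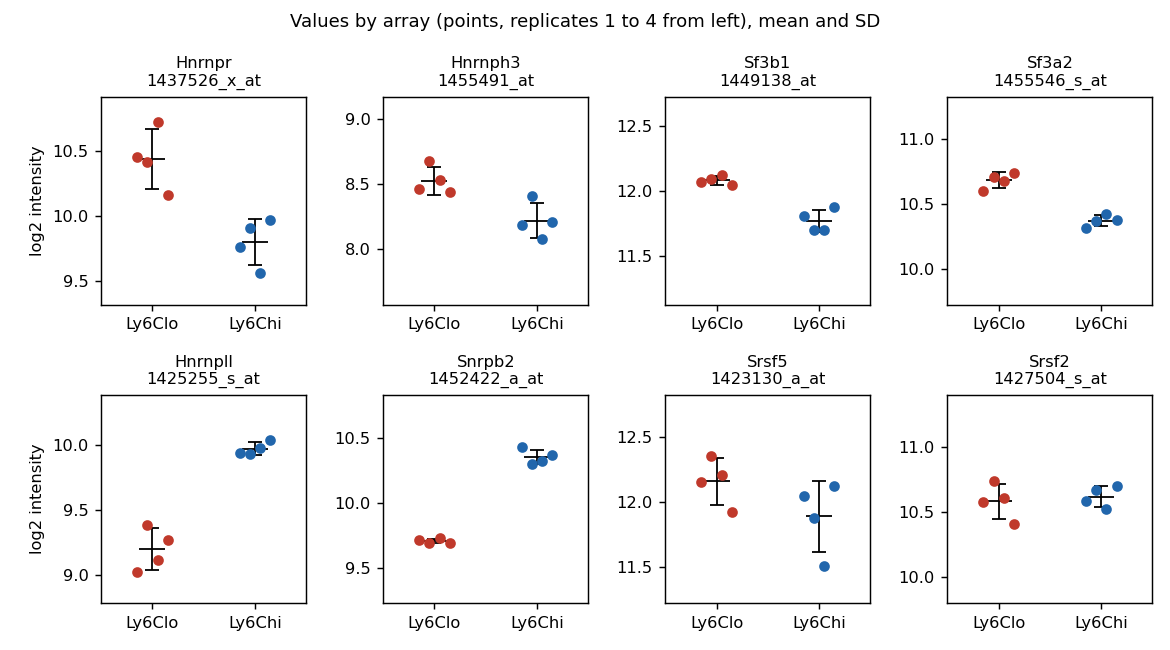
Log2 intensity of 8 genes by array on their brightest probe sets, with Ly6Clo left of Ly6Chi, points for replicates 1 to 4 and bars for mean and SD (n = 4 each); each axis spans 1.6 log2 units around the gene's mean. Hnrnpr, Hnrnph3, Sf3b1 and Sf3a2 were higher and Hnrnpll and Snrpb2 lower in Ly6Clo without overlap, while the values of Srsf5 and Srsf2 overlapped.

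In the SF3 complexes 2 of 9 genes rose and none fell in limma, at an unadjusted p under 0.05 also none, so 22.2% were called, against 32.5% of all genes. Over the 25 tested probe sets 4 rose and 0 fell (16.0% called, against 31.1% in the whole table), and the median difference was 0.06. Sf3b1, the large SF3b subunit that contacts the branch point and is mutated in human myelodysplastic syndromes, was 1.24-fold higher in Ly6Clo. It had 12.07, 12.09, 12.13 and 12.05 in Ly6Clo and 11.80, 11.70, 11.70 and 11.88 in Ly6Chi (difference 0.31, SE 0.06, adjusted p = 0.0025), and every Ly6Clo array lay above every Ly6Chi array. Of its 3 other probe sets, 2 rose by 0.26 and 0.27 and 1 differed by 0.20 without a call. The weaker 2 of these calls were lost without Ly6Clo replicate 1 (adjusted p = 0.052 and 0.13) or Ly6Chi replicate 2 (0.052 and 0.13). The weaker of them was also lost without Ly6Clo replicate 2 (0.12), Ly6Chi replicate 3 (0.0735) or Ly6Chi replicate 4 (0.087). The call on the brightest probe set was kept in each case.

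Sf3a2, the SF3a subunit SAP62, had 10.60, 10.71, 10.68 and 10.74 in Ly6Clo and 10.32, 10.37, 10.42 and 10.37 in Ly6Chi (difference 0.31, SE 0.06, adjusted p = 0.0018). Its second probe set differed by 0.00 (95% interval -0.18 to 0.18), so the rise rests on 1 probe set, of a kind that can match several transcripts. The other members of both complexes did not pass the test. Sf3a1 and Sf3a3, the other subunits of SF3a, differed by -0.05 and 0.18. Sf3b2, Sf3b3, Sf3b4, Sf3b5 and Sf3b6, further subunits of SF3b, differed by 0.00, 0.06, 0.15, -0.12 and 0.01. Phf5a, an SF3b subunit outside the symbol rule, fell by 0.24 (adjusted p = 0.0499 in limma), with overlapping values. The subunits of each complex work together in fixed proportion, and their array values here did not all move with Sf3b1 and Sf3a2 past the threshold; whether the subunits differ from each other was not tested.

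In the snRNP family, 1 of 16 tested probe sets rose and 3 fell, and of 9 genes none rose in limma and 2 fell. Thus 4 of 16 probe sets were called, against 31.1% in the whole table, and 22.2% of genes, against 32.5% of all genes. At an unadjusted p under 0.05, 2 genes would rise. The median over the tested probe sets was -0.08. Snrpb2, which binds the U2 RNA together with Snrpa1, was 1.57-fold lower in Ly6Clo. It had 9.71, 9.69, 9.73 and 9.69 in Ly6Clo, against 10.43, 10.30, 10.32 and 10.37 in Ly6Chi (difference -0.65, SE 0.06, adjusted p = 5.2e-06). Its second tested probe set had 9.57, 9.77, 9.59 and 9.57 in Ly6Clo and 10.24, 10.18, 10.18 and 10.13 in Ly6Chi (difference -0.55, SE 0.07, adjusted p = 5.7e-05). The Ly6Clo arrays had an SD of 0.02 on the first probe set, and all lay below the Ly6Chi arrays. Snrpa1, its partner U2 A', differed by 0.18 (95% interval 0.00 to 0.36) and was not called.

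The Sm ring is encoded by Snrpb, Snrpd3, Snrpe, Snrpf and Snrpg among the members. Snrpb, the B/B' protein, was not called on its brightest probe set, with 12.28, 12.25, 12.31 and 12.16 in Ly6Clo and 12.18, 12.05, 12.04 and 12.07 in Ly6Chi (difference 0.16, adjusted p = 0.072). Its other probe set rose, with 11.55, 11.65, 11.58 and 11.61 in Ly6Clo and 11.37, 11.29, 11.34 and 11.43 in Ly6Chi (difference 0.24, SE 0.06, adjusted p = 0.0091). Snrpf fell narrowly, with 8.87, 8.97, 8.86 and 8.84 in Ly6Clo and 9.07, 9.05, 9.15 and 8.97 in Ly6Chi (difference -0.18, SE 0.06, adjusted p = 0.0495). That call was lost without Ly6Clo replicate 1 (adjusted p = 0.10), 3 (0.11) or 4 (0.12) and without Ly6Chi replicate 1 (0.085), 2 (0.093) or 3 (0.13). It was also lost with the replicate number as a block (0.080). Snrpd3, Snrpe and Snrpg differed by -0.06, -0.13 and -0.11 and were not called. Snrpc of the U1 particle differed by 0.03. Snrpn, an imprinted Sm gene best known from brain, differed by 0.01 on a probe set little above the table median.

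Many of these genes carry several probe sets, which can read different transcript ends, and probe sets of 1 gene often gave different calls. Of 33 genes with several tested probe sets, none had calls in both directions, 21 had no call, 10 had a call on some but not all, and 2, Hnrnpll and Snrpb2, were called the same way on all. For 5 genes the brightest probe set was not called while another was: Hnrnpab, Hnrnpf, Snrpb, Srsf1 and Srsf3. Counts by gene therefore depend on which probe set stands for the gene. With the most variable probe set, 1 SR gene rose and 1 fell, where the brightest gave 0 and 0.

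**Figure D3:**
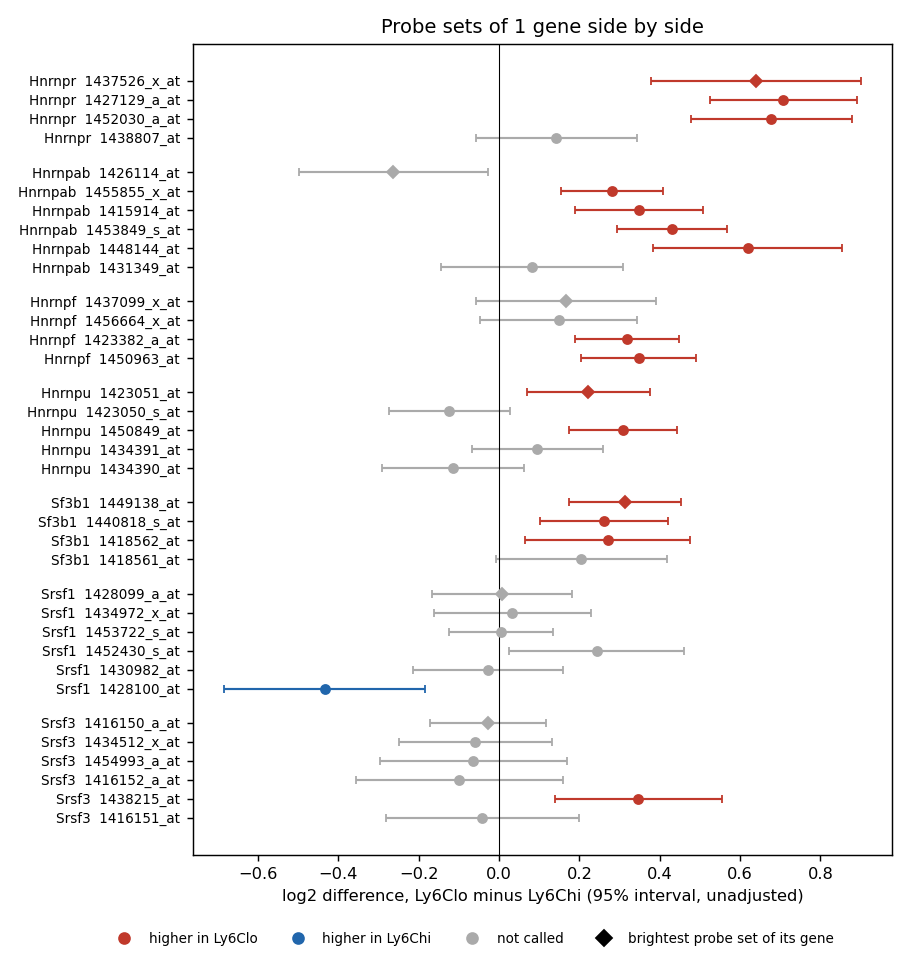
Log2 difference (Ly6Clo minus Ly6Chi) with its unadjusted 95% interval for every tested probe set of 7 genes, coloured by call, with a diamond for the brightest probe set of a gene. The Hnrnpr and Sf3b1 probe sets all lie above 0, whereas the brightest Hnrnpab probe set lies below 0 and its other 5 above.

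Within a subset, the members leaned to certain arrays. Ly6Clo replicate 2 was the highest of its subset for 61 of 123 tested members (49.6%), against 37.3% of all tested probe sets. Ly6Clo replicate 4 was the lowest for 46 members (37.4%), against 23.4%. Ly6Chi replicate 3 was the lowest of its subset for 49 members (39.8%), against 31.2%, and Ly6Chi replicate 2 for 14 (11.4%), against 20.5%. Leaving out any 1 of the 8 arrays gave 3 to 5 hnRNP genes that rose, against 4 with all arrays.

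Markers of other cells and of handling moved between the subsets too. NK cell markers had 2 of 3 tested members higher in Ly6Clo (Gzma and Klrd1), with sums over 6 genes of 813.1 to 1017.9 in Ly6Clo and 484.5 to 594.0 in Ly6Chi. Of 8 tested neutrophil markers, 3 were lower in Ly6Clo, with sums over 10 genes of 741.5 to 1065.7 in Ly6Clo and 1048.3 to 1640.8 in Ly6Chi; Cxcr2 was below the table median on every array. Platelet (6 tested) and red cell (2 tested) markers had no call in limma and wide sums, at 1957.4 to 5424.5 and 1009.1 to 4529.6 in Ly6Clo, against 1704.8 to 4189.4 and 939.0 to 3043.0 in Ly6Chi. Immediate early and stress genes, known to respond to handling, had 6 of 14 tested members higher and 2 lower in Ly6Clo. In RNA from sorted pools, fewer cells of a type and less RNA per cell cannot be told apart. The part of these genes in the splicing factor differences was not tested.

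Other splicing genes were taken from 3 lists written from general knowledge. The first list held spliceosome proteins outside the families and related Lsm proteins. Of its 38 tested genes 7 rose, Lsm1 among them, and 1 fell. Thus 21.1% were called, against 32.5% of all genes, and their median difference was 0.05. Snrnp48, a protein of the minor spliceosome that removes rare introns, was 1.69-fold higher in Ly6Clo, at 9.59 ± 0.07 in Ly6Clo and 8.84 ± 0.08 in Ly6Chi (SD, n = 4 each; difference 0.76, limma adjusted p = 4.7e-06). Lsm3, of the ring on the U6 RNA, rose by 0.41 and Prpf3, of the U4/U6 particle, by 0.26. The 1 that fell was Phf5a, given above with SF3b. The Prpf3 values overlapped between the subsets (adjusted p = 0.048 in limma).

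Among 33 factors of catalysis and disassembly, 6 rose and none fell in limma (3 fell at an unadjusted p under 0.05), 18.2% against 32.5%, with a median difference of 0.08. Aqr, a helicase that binds introns, rose by 0.48, Dhx8, the helicase that releases spliced mRNA, by 0.34, and Cdc40, a second-step factor, by 0.25. The values of all 3 did not overlap between subsets.

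The 55 kinases and regulators of splice site choice held more calls, with 15 that rose (against 14.1% of all genes) and 7 that fell (against 18.5%), and a median difference of 0.12. Cirbp, the cold-inducible RNA-binding protein, was at 8.58 ± 0.40 in Ly6Clo and 7.70 ± 0.37 in Ly6Chi (difference 0.87, limma adjusted p = 0.0067), with a wide spread in both subsets. Esrp2, an epithelial splicing regulator, rose by 0.72 and Mbnl3, of the muscleblind family, by 0.48. The Esrp2 probe set was of a kind that can match several transcripts, and its Ly6Chi mean of 6.54 was little above the table median. Srpk2, a kinase that phosphorylates SR proteins, was 1.44-fold lower in Ly6Clo, at 7.57 ± 0.11 in Ly6Clo and 8.10 ± 0.14 in Ly6Chi (difference -0.53, limma adjusted p = 5.3e-04). Fubp3 fell by 0.43, with a Ly6Clo mean below the table median, and Pcbp2, a poly(C)-binding protein, fell by 0.32.

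**Figure D4:**
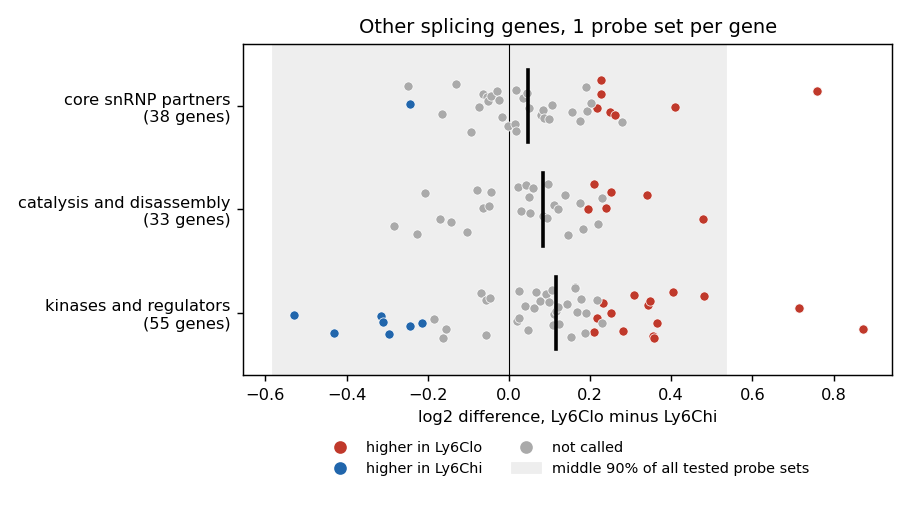
Log2 difference (Ly6Clo minus Ly6Chi) of tested genes in 3 lists of other splicing genes, 1 point per gene, coloured by call, with the list median as a black bar and the middle 90% of all tested probe sets in grey. Snrnp48, Esrp2 and Cirbp lie to the right of the band and no gene lies to its left.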

How the data were processed

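Per the submitters' processing notes, GCRMA and MAS5 are named, without version, role or order; how arrays were scaled is not given in the sources used here. The authors deposited linear intensities, 1 per probe set and array. Per the labels' protocols, in vitro transcription ran for 64 h in place of 4 h, and its effect on ratios was not tested. Values were used here as log2, with no pseudocount or added scaling, after 64 array controls were removed. Symbols came from the platform annotation, and all 139 members matched a RefSeq gene by Entrez identifier with 0 changed names.

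Probe sets above the table median (intensity 81.9) in at least 4 of 8 arrays were tested, which kept 22831. The test was limma 3.58.1 (R 4.3.3) with lmFit and eBayes, without block or weights. P-values were two-sided and Benjamini-Hochberg adjusted across these probe sets, and the fit was tested on simulated data. Labels call the samples biological replicates. Alternatives changed the scaling, filter, pseudocount, variance model, weights, block, probe set choice, threshold and arrays left out. Named genes were, per family, called genes without overlap (at most 5 each way), the brightest member, genes with opposite calls and genes not tested; per list of other splicing genes, the 3 largest calls each way; others were named after their values were seen. Members and lists were chosen with earlier results of these data known. Protein sequences were not used here.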

Additional observations from a re-analysis of the deposited data

Results flagged for a closer look

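On 62 probe sets (the brightest of each member gene and every called one), 124 sets of 4 values were checked for an array far from the other 3 of its subset, and 5 were found; chance alone gives about 1 in 20. For Hnrnph1, Ly6Clo replicate 2 stood at 11.56, with the other 3 at 11.39 to 11.41. For the second Snrpb2 probe set, Ly6Clo replicate 2 stood at 9.77, with the others at 9.57 to 9.59, still below every Ly6Chi array. For Hnrnpa2b1, Ly6Clo replicate 3 stood at 10.84, with the others at 11.03 to 11.04. For Hnrnpul1, Ly6Clo replicate 1 stood at 10.28, with the others at 10.19 to 10.20. For Sf3a1, Ly6Chi replicate 1 stood at 8.56, with the others at 8.43 to 8.45.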

How the results depend on the processing

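Of 25 called member probe sets, 17 stayed called under each of 22 alternative settings in which they could be computed, and none changed direction. Those lost at least once were the Hnrnpu, Sf3b1, Snrpf and Srsf1 probe sets described above and, only at a threshold of 0.01, Hnrnph1, Hnrnph3 and Srsf3. The causes of the changes below were not tested, except that a stricter threshold and fewer probe sets lower counts by construction. Deviations of same-numbered arrays correlated at 0.27, 0.34, -0.03 and -0.10. Those of arrays with different numbers correlated at -0.41 to 0.55, so a pairing by number was not shown and was not used. With the replicate block 3 SR probe sets rose, 2 hnRNP genes fell and 1 snRNP gene fell. Without both arrays numbered 1, 0 SR probe sets fell, 2 hnRNP genes fell, 2 SF3 probe sets rose and 1 snRNP gene fell. With no filter, 1 SF3 probe set and 1 snRNP gene fell. Quantile normalization gave 2 SR probe sets, 2 snRNP probe sets and 1 snRNP gene that rose. Centring gave 2 SR probe sets each way, 1 SR gene that fell and 2 hnRNP genes that fell. A pseudocount of 16, array weights and the trended robust fit each gave 2 hnRNP genes that fell, and the last also 2 snRNP probe sets and 1 snRNP gene that rose and 1 that fell. With the most variable probe set, 1 SR gene moved each way and 1 snRNP gene rose, as 1 did with the mean of probe sets. Without probe sets that can match several transcripts, 1 SR gene, 7 hnRNP probe sets, 2 SF3 probe sets, 1 SF3 gene and 0 snRNP probe sets rose, and 1 hnRNP probe set, 1 snRNP probe set and 1 snRNP gene fell. At 0.01, 0 SR probe sets moved either way, 1 hnRNP gene and 2 SF3 probe sets rose and 1 snRNP gene fell. Leaving out 1 array gave 1 to 2 SR and 2 to 5 SF3 probe sets that rose, 1 to 2 snRNP probe sets and 0 to 1 snRNP genes that rose, and 1 to 2 hnRNP and 1 to 2 snRNP genes that fell.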

Other observations

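Probe sets annotated jointly to a family gene and other loci were outside the symbol rule. Of 16 such probe sets 12 were tested, and 2 rose (against 15.2% of all tested probe sets) and 5 fell (against 15.9%). All 3 annotated to Hnrnpa1 with related loci fell, by 0.50, 0.38 and 0.20 without overlap, whereas the 2 tested probe sets annotated to Hnrnpa1 alone differed by -0.15 and 0.04 and were not called. The leading one had 8.95, 9.15, 8.97 and 9.17 in Ly6Clo and 9.57, 9.65, 9.51 and 9.52 in Ly6Chi (difference -0.50, SE 0.07, limma adjusted p = 2.2e-04). The probe set shared by Snrpa, the U1 A protein, fell by 0.32 and that shared by Snrpd2, of the Sm ring, by 0.23, while that shared by Snrpd1, also of the ring, rose by 0.27. Of 4 probe sets shared by Hnrnpa3, 1 rose by 0.25. The 2 tested probe sets shared by Snurf and Snrpn differed by -0.05 and -0.02 and were not called. Such probe sets cannot be assigned to 1 locus.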
